A study of Rattus norvegicus with 15 samples.

Results

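The 8 genes examined here are genes whose levels in rat liver differed with dietary genistein: Rgs3, Ppp2r1b, Pcdh10 and Tmem64, which were higher, and Dmxl2, Olr59, Nox4 and Omd, which were lower. They were chosen by their adjusted p for genistein against control in these same arrays, so that contrast is described for them and carries no test. All probe sets whose array annotation names 1 of the 8 genes alone were taken, which gave 12 of the 31099 probe sets of the array, 3 for Rgs3, 3 for Tmem64 and 1 for each other gene. RNA from whole livers of male rats of the outbred Sprague-Dawley stock was measured on 15 Affymetrix arrays, which the titles call biological replicates. The genistein group ate 2 g/kg genistein, the daidzein group 2 g/kg daidzein and the control group an isoflavone-free diet, for 14 days after 5 days of adaptation from an age of 4 weeks, with 5 rats per diet. Casein at 200 g/kg and palm oil at 100 g/kg were in every diet. Both isoflavones come from soy and differ by a hydroxyl group, which genistein carries in addition. 

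The 8 genes belong to no common pathway, and most of them encode membrane proteins or signalling enzymes. Regulators of G protein signalling such as Rgs3 speed the hydrolysis of GTP by G alpha subunits and so end signals from membrane receptors. Protein phosphatase 2A removes phosphate from serine and threonine residues, and Ppp2r1b is the beta form of the scaffold subunit that holds its catalytic and regulatory subunits together. Nox4 is an NADPH oxidase that yields hydrogen peroxide and needs no cytosolic activator.

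Levels are in log2 units with an arbitrary zero, and a level of 1 probe set is not compared with that of another. A probe set was called dim below -0.30, the 40th percentile of mean level, and 11 of the 12 lay above it on average. Array replicates of 1 diet are named by the number in their title. Pearson correlations between arrays over 18625 tested probe sets ran from 0.931 to 0.969. Genistein 4 had the lowest median correlation with the arrays of its own diet, 0.951, against 0.955 to 0.966 for the other 14. None of the 6 hepatocyte markers was dim. Their summed linear signal, before normalization between arrays, ranged from 63882 to 79979 with genistein, 72026 to 91579 with daidzein and 69950 to 81767 in controls. That of 8 stellate and fibroblast markers ranged from 1876 to 2969, 1930 to 2332 and 2142 to 2699 in the same order. Genistein 4 held the low end of the genistein range for the hepatocyte, cholangiocyte, Kupffer, stellate, endothelial and erythroid sums. For the T and B lymphocyte sum genistein 5 was lowest. The other 4 genistein arrays had stellate sums of 2826 to 2969, above every daidzein and control array. After normalization the mean level of the stellate markers was 2.12 in genistein 4 and 1.91 to 2.00 in the other 4 genistein arrays, against 1.80 to 1.90 with daidzein and 1.92 to 2.03 in controls. This mean of log2 levels weighs the 8 markers alike, whereas bright markers dominate the linear sum. The 2 measures therefore differ in more than the normalization. No marker of the 7 lists was called in any contrast, and the part of these markers in the results below was not tested. In whole liver, fewer cells of a type and less RNA per cell cannot be told apart.

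Among the genes that were lower, Dmxl2 had the widest gap. It encodes rabconnectin-3 alpha, a large WD-repeat protein of vesicles that takes part in the assembly of the proton-pumping V-ATPase. Its single probe set (1390145_at) read -0.91, -0.50, -0.59, 0.16 and 0.35 with genistein, 1.01, 0.51, 0.44, 0.44 and 0.63 with daidzein, and 2.34, 1.59, 2.44, 1.95 and 1.15 in controls, for arrays 1 to 5. The ranges of the 3 diets did not overlap, with genistein at the bottom, daidzein between and control at the top. Genistein minus control was -2.19 ± 0.27 (SE, n = 5 per diet), a level 4.57-fold lower with genistein. Before normalization the probe set lay at 23.4 to 50.3 linear units above the subtracted background with genistein and at 94.0 to 203 units in controls, where 1 unit is the step between neighbouring values and the dim level is about 32.7. Genistein 1, 2 and 3 were dim.

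Olr59 is an olfactory receptor gene that the current rat gene table also lists as Or51e2 and Olfr78; in the mouse the Olfr78 protein is a receptor for short-chain fatty acids outside the nose. Its probe set (1387981_at) read 0.36, 0.51, -0.31, 1.61 and 1.03 with genistein, 1.49, 1.71, 1.66, 1.57 and 1.28 with daidzein, and 2.17, 2.49, 2.41, 2.26 and 1.94 in controls. All genistein and all daidzein arrays lay below all control arrays, while genistein 4 lay among the daidzein arrays. The difference from control was -1.61 ± 0.26 (SE), 3.06-fold lower. The spread was widest with genistein (SD 0.72), against 0.17 with daidzein and 0.21 in controls, whereas the fit assumes 1 spread for all diets. Other olfactory receptors gave little signal: of 5 with a probe set, 4 were dim, and Olr1867 averaged 0.28 ± 0.31 with genistein and 0.34 ± 0.34 in controls (SD, n = 5 each).

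Nox4 (1368543_at) read -0.00, -1.11, -0.11, -0.37 and -0.45 with genistein, 1.15, -0.07, 0.66, -0.09 and 0.88 with daidzein, and 1.23, 0.58, 1.20, 1.41 and 0.89 in controls. Every genistein array lay below every control array, and 3 of the 5 were dim; daidzein arrays lay partly in each range. With genistein the mean differed from control by -1.47 ± 0.26 (SE), 2.77-fold lower, and 2.14-fold lower with 16 units added to the linear signal of each array, which damps changes near background.

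Omd encodes osteomodulin, a small leucine-rich proteoglycan known from bone matrix. Its probe set (1387197_at) read -0.38, -0.04, 0.40, 0.86 and 0.81 with genistein, 1.72, 0.68, 0.86, 0.97 and 1.61 with daidzein, and 2.05, 1.42, 1.56, 1.50 and 1.68 in controls. Genistein and control arrays were apart, and the daidzein arrays reached into both ranges. The mean with genistein differed from control by -1.31 ± 0.25 (SE), 2.48-fold lower.

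Among the genes that were higher, Rgs3 showed how much the probe set matters. Probe set 1367957_at read 4.51, 4.60, 4.13, 3.03 and 4.44 with genistein, 2.84, 2.64, 3.34, 3.42 and 3.46 with daidzein, and 3.20, 2.70, 1.91, 2.67 and 2.76 in controls. Genistein 4 lay inside the control range and the other 4 genistein arrays lay above every daidzein and control array. Genistein minus control was 1.49 ± 0.30 (SE), 2.82-fold higher, and 1.77 without genistein 4. The other probe sets of Rgs3 did not show this gap. Probe set 1376803_at averaged -0.11 ± 0.29 with genistein and -0.04 ± 0.64 in controls, and 1374528_at, which was dim and not tested, averaged -0.64 ± 0.22 with genistein and -0.70 ± 0.48 in controls (SD, n = 5 each). Probe set 1376803_at also lay near the dim level, with means of 38.2 linear units with genistein and 40.1 in controls. Whether a probe set so near background could show the gap was not tested. Over the 15 arrays the first probe set had Pearson r of -0.13 with 1376803_at and -0.10 with 1374528_at. The files do not say which transcripts of Rgs3 each probe set reads.

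Tmem64 encodes a membrane protein of the VTT-domain group, which in the mouse binds the calcium pump SERCA2. Its 3 probe sets all averaged higher with genistein. Probe set 1376691_at read 3.25, 3.27, 3.19, 2.82 and 3.01 with genistein, 2.39, 2.89, 2.71, 2.90 and 2.51 with daidzein, and 2.70, 2.62, 2.72, 2.31 and 2.63 in controls. Probe set 1373909_at, the one that had passed the threshold, read 1.78, 1.98, 2.13, 1.66 and 1.84 with genistein, 1.14, 1.18, 1.40, 1.49 and 1.50 with daidzein, and 1.06, 1.18, 1.19, 1.22 and 1.30 in controls. For both of these all genistein arrays lay above all control arrays. In the third, 1393414_at, genistein 4 (1.14) fell among the controls, which ran from 0.72 to 1.37. Genistein minus control was 0.51 ± 0.12, 0.69 ± 0.10 and 0.62 ± 0.18 (SE) for the 3 probe sets in this order, between 1.43-fold and 1.61-fold. Their pairwise r over the 15 arrays was 0.74 to 0.84.

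Ppp2r1b (1373959_at) read 2.64, 2.69, 2.50, 1.58 and 1.73 with genistein, 0.68, 0.87, 1.26, 1.49 and 1.31 with daidzein, and 0.34, 1.11, 0.42, 0.56 and 1.42 in controls. All genistein arrays lay above all others, with genistein 4 and 5 closest to them. The genistein mean exceeded the control mean by 1.46 ± 0.26 (SE), 2.75-fold higher.

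Pcdh10 encodes a protocadherin, a membrane adhesion protein of the cadherin superfamily that binds the actin regulator Nckap1. Its probe set (1393868_at) read 0.88, 0.47, 0.34, 0.50 and 0.92 with genistein, -1.26, 0.49, 0.49, -0.17 and 1.01 with daidzein, and -1.22, -1.64, -2.51, -1.81 and -0.54 in controls. All 5 controls were dim, with genistein arrays at 48.0 to 82.4 linear units and controls at 6.35 to 27.1. The probe set passed the filter on low values at a mean level of -0.27 only through the diets in which it was higher. With controls set to the dim level, the mean of Pcdh10 was 1.89-fold higher with genistein and 1.33-fold higher with daidzein. These folds carry no sampling error, and daidzein 1 was itself dim. The measured means were 0.62 with genistein, 0.11 with daidzein and -1.54 in controls, and a fold from them depends on values near background (4.48-fold for genistein against control, or 2.54-fold with 16 units added to the linear signal). Daidzein 1 lay with the controls and the other 4 daidzein arrays lay above all controls.

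**Figure D1:**
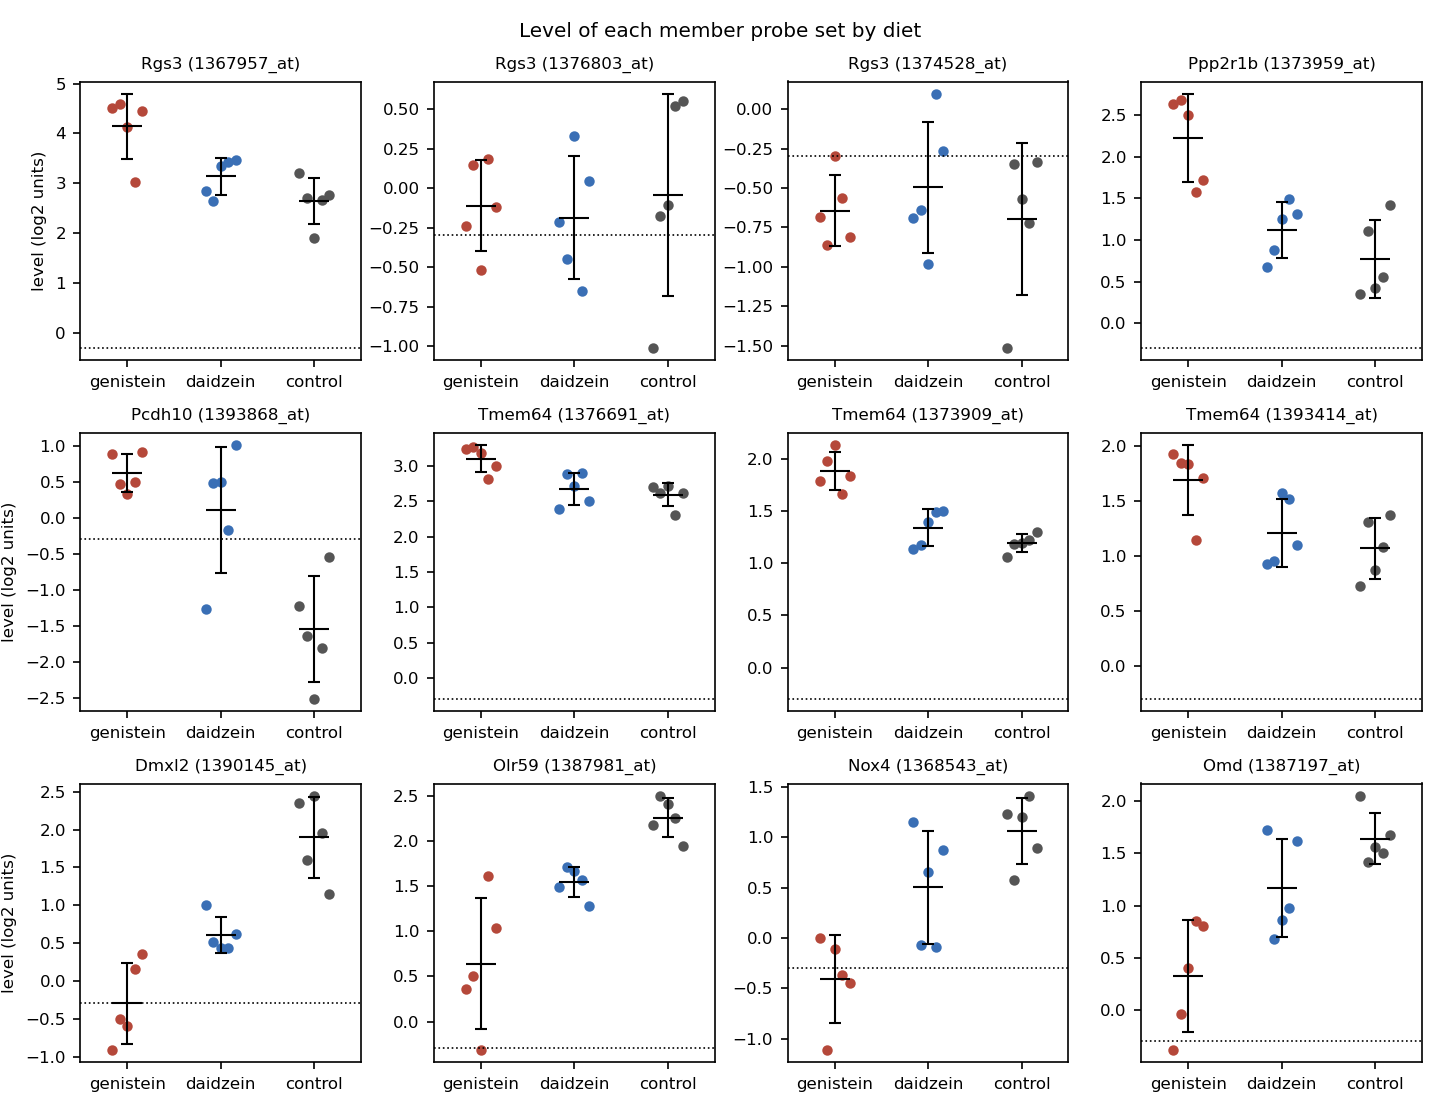
Level in log2 units (vertical axis, own scale in each panel) of the 12 probe sets in genistein, daidzein and control arrays; points are arrays, the bar is the mean and the whiskers are 1 SD (n = 5). The dotted line is the dim level of -0.30; the 5 control arrays of Pcdh10 all lie below it, and Dmxl2 shows 3 ranges with no overlap.

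In genistein against control, the contrast on which the genes were chosen, 8 of the 11 tested probe sets had passed (4 higher and 4 lower by limma at an adjusted p under 0.05, with Benjamini-Hochberg adjustment over 18625 probe sets), where 0.322% of all tested probe sets did, 0.15% higher and 0.172% lower. The member nearest to the threshold on the inside was Rgs3 1367957_at (adjusted p = 0.0496) and the nearest outside was Tmem64 1376691_at (adjusted p = 0.0984), and nothing is read from these. Ranges of genistein and control did not overlap in 8 of the 11, against 2.57% of all tested probe sets.

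The daidzein diet was not used to choose the genes, although its contrast with control shares the control arrays. None of the 11 tested member probe sets was called in daidzein against control (limma, adjusted p from 0.209 to 0.917), where 0.0161% of all tested probe sets were; 3 had an unadjusted p under 0.05, against 8.25% of all. Those 3 were Dmxl2, Olr59 and Pcdh10. Pcdh10 had dim controls and passed the filter through the isoflavone diets, so its p is not read as a result. Daidzein minus control was -1.29 for Dmxl2 (95% confidence interval -1.86 to -0.72, limma adjusted p = 0.209), lower in 5 of 5 arrays than the control mean. For Olr59 it was -0.71 (-1.27 to -0.15, limma adjusted p = 0.493), again with 5 of 5 arrays on the lower side. For Pcdh10 the fold against the dim level given above has no interval, and none is read here. Ranges did not overlap for Dmxl2 and Olr59, 2 of 11 probe sets, against 1.88% of all tested. The intervals of the other 5 genes contained 0: 0.49 (-0.14 to 1.13) for Rgs3 1367957_at, -0.56 (-1.12 to 0.01) for Nox4, -0.47 (-1.01 to 0.07) for Omd and 0.35 (-0.21 to 0.92) for Ppp2r1b. For Tmem64 they were 0.08 (-0.18 to 0.35), 0.15 (-0.06 to 0.37) and 0.14 (-0.24 to 0.53) in the order of its probe sets above. A wide gap between genistein and control was what chose the genes, so a mean between both is no separate finding about daidzein.

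Genistein and daidzein were fed at the same dose for the same time, which sets the isoflavones directly against each other. Genistein against daidzein shares the genistein arrays with the contrast of choice, and 0 of the 11 member probe sets were called (limma, adjusted p from 0.0569 to 0.969), where 0.113% of all tested probe sets were; 9 had an unadjusted p under 0.05, against 9.37% of all. The lowest adjusted p belonged to Tmem64 1373909_at, with genistein minus daidzein of 0.54 (95% interval 0.32 to 0.75, limma adjusted p = 0.0569) and no overlap of the ranges. Ppp2r1b, at 1.10 (0.54 to 1.67, adjusted p = 0.121), and Dmxl2, at -0.90 (-1.47 to -0.33, adjusted p = 0.231), also had ranges apart, 3 of 11 in all, against 2.03% of all tested probe sets. Rgs3 1367957_at differed by 1.00 (0.37 to 1.63), Nox4 by -0.91 (-1.47 to -0.35), Olr59 by -0.90 (-1.46 to -0.35) and Omd by -0.84 (-1.38 to -0.30). Pcdh10 had the interval that contained 0 among the 8 genes' brightest probe sets, at 0.51 (-0.32 to 1.34, adjusted p = 0.764). Without genistein 4, Rgs3 1367957_at (1.28, adjusted p = 0.0238), Ppp2r1b (1.27, 0.0421), Olr59 (-1.15, 0.0233) and Tmem64 1373909_at (0.59, 0.0183) passed in this contrast, where 0.73% of all tested probe sets did (136, against 21 with all arrays). Each of these 4 passed in 1 of the 15 fits without 1 array. In each of them genistein 4 was the genistein array nearest to the control mean. The genes were chosen by a wide gap in these same genistein arrays. Neither these passes nor the 9 unadjusted p are therefore read as a test.

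**Figure D2:**
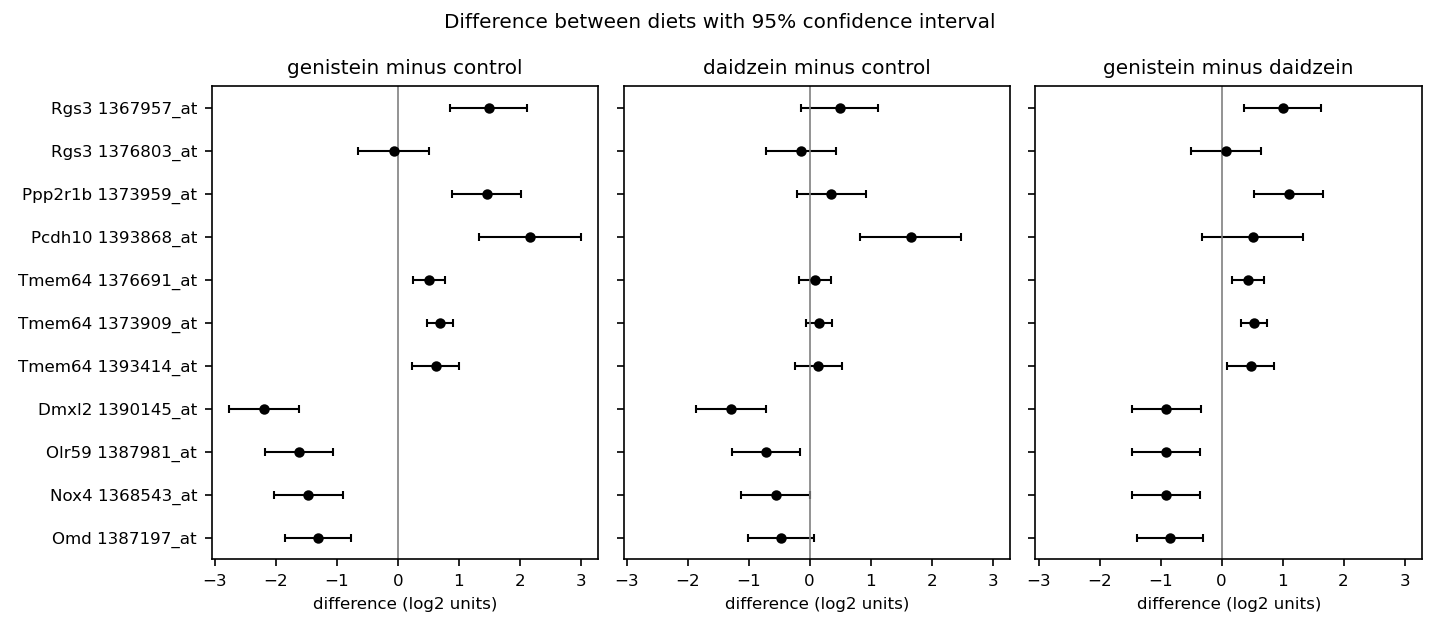
Difference between diets in log2 units (horizontal axis) for the 11 tested probe sets, with the 95% confidence interval of the fit, in 3 panels for genistein minus control, daidzein minus control and genistein minus daidzein. The intervals of Dmxl2, Olr59 and Pcdh10 lie off 0 in the daidzein panel (Pcdh10 against dim controls), and the interval of Pcdh10 is wide and contains 0 in the last panel.

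Genistein 4 was the genistein array nearest to the control mean in 5 of the 8 genes by their brightest probe set, namely Rgs3, Ppp2r1b, Tmem64, Olr59 and Omd. In the other genes this place was held by genistein 5 (Dmxl2), genistein 1 (Nox4) and genistein 3 (Pcdh10). Relative to the control mean genistein 4 lay at 0.38 for Rgs3, where the other 4 arrays lay at 1.48 to 1.95. The role of this array in the values above is given by the results without it, and its cause was not tested.

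**Figure D3:**
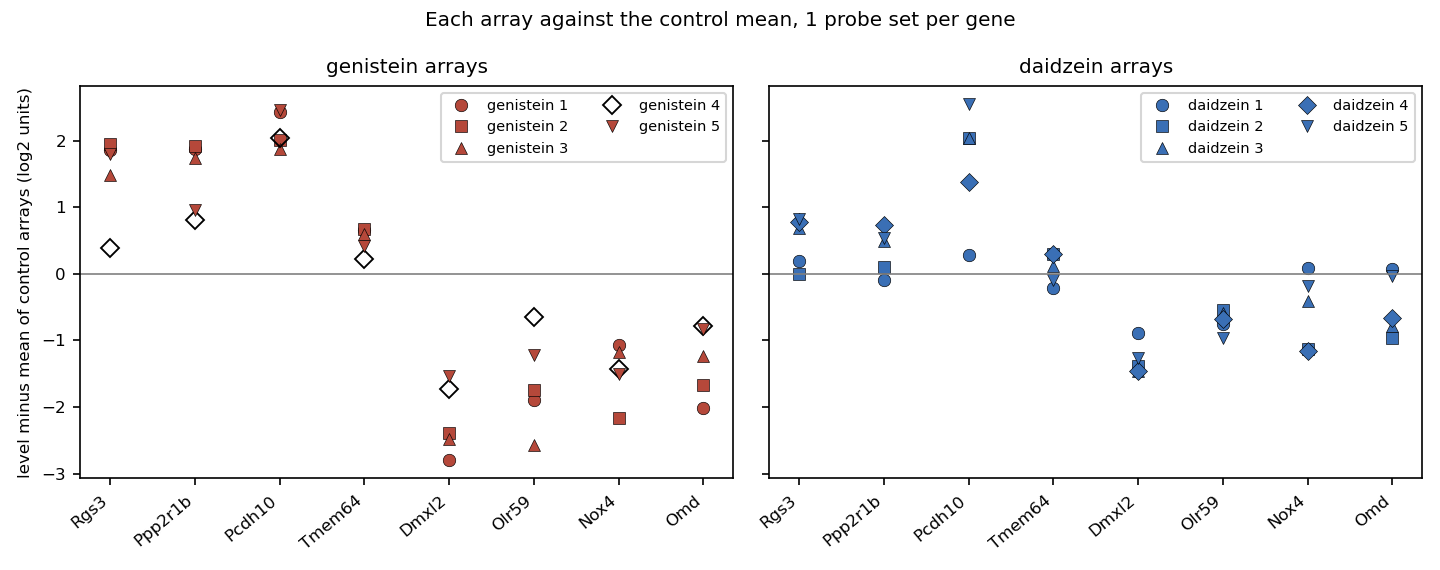
Level of each genistein array (left) and each daidzein array (right) minus the mean of the 5 control arrays, in log2 units (vertical axis), for the brightest tested probe set of each gene. The open diamond is genistein 4, which lies nearest to 0 for Rgs3, Ppp2r1b, Tmem64, Olr59 and Omd.

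After the diet means were taken away, what was left showed which members varied together from animal to animal. Of 28 pairs of the brightest probe sets of the 8 genes, 1 had a Pearson r above 0.7 in size, Ppp2r1b with Dmxl2 (r = -0.91 over 15 arrays, rho = -0.91, and r = -0.89 over 13 arrays without the 2 farthest in Ppp2r1b). Another probe set of Tmem64, 1393414_at, varied with the same pair (r = 0.84 with Ppp2r1b and -0.74 with Dmxl2), and 1373909_at had r = 0.70 with Ppp2r1b. Ppp2r1b and Dmxl2 lie on chromosome 8 in the rat gene table, with 12 other tested genes between them. Control 5, which had the highest Ppp2r1b of its diet (1.42), had the lowest Dmxl2 (1.15), and genistein 4 and 5, lowest in Ppp2r1b with genistein, were highest in Dmxl2. The median size of r over the 28 pairs was 0.40. Members share arrays and normalization, so these values are a description.

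The genes whose pattern over the 15 arrays was most like that of Ppp2r1b were Fdx1, the mitochondrial ferredoxin of steroid hydroxylation (r = 0.93), and Sik2, a salt-inducible kinase (r = 0.93). The r of their deviations from the diet means with those of Ppp2r1b was 0.80 (rho = 0.73, and r = 0.71 over 13 arrays) for Fdx1 and 0.86 (rho = 0.86, and r = 0.90 over 13 arrays) for Sik2. Both genes were picked by an r over these same arrays that includes the deviations, so these values are no separate support. The gene table places both beside Ppp2r1b on chromosome 8: Sik2 is the next tested gene and 2 tested genes lie between Ppp2r1b and Fdx1. Sik2 averaged 1.13 with genistein, 0.63 with daidzein and 0.21 in controls. Fdx1 averaged 5.82, 5.24 and 5.12 in the same order. Most of the neighbours did not follow: among the 20 tested genes around Ppp2r1b, 3 had a size of r over 0.7 (Sik2, Fdx1 and C8h11orf52), against 2.27% of 10704 genes, and the median size was 0.20, against 0.25 over all genes. This look at chromosome neighbours was chosen after the values were seen. For Dmxl2, 2 of its 20 nearest tested genes had a size of r over 0.7 (Skic8 at 0.72 and Fdx1 at -0.72), against 1.19% of all genes. For Rgs3, Pcdh10, Nox4, Omd, Olr59 and Tmem64, 0 of the 20 nearest tested genes had a size of r over 0.7.

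**Figure D4:**
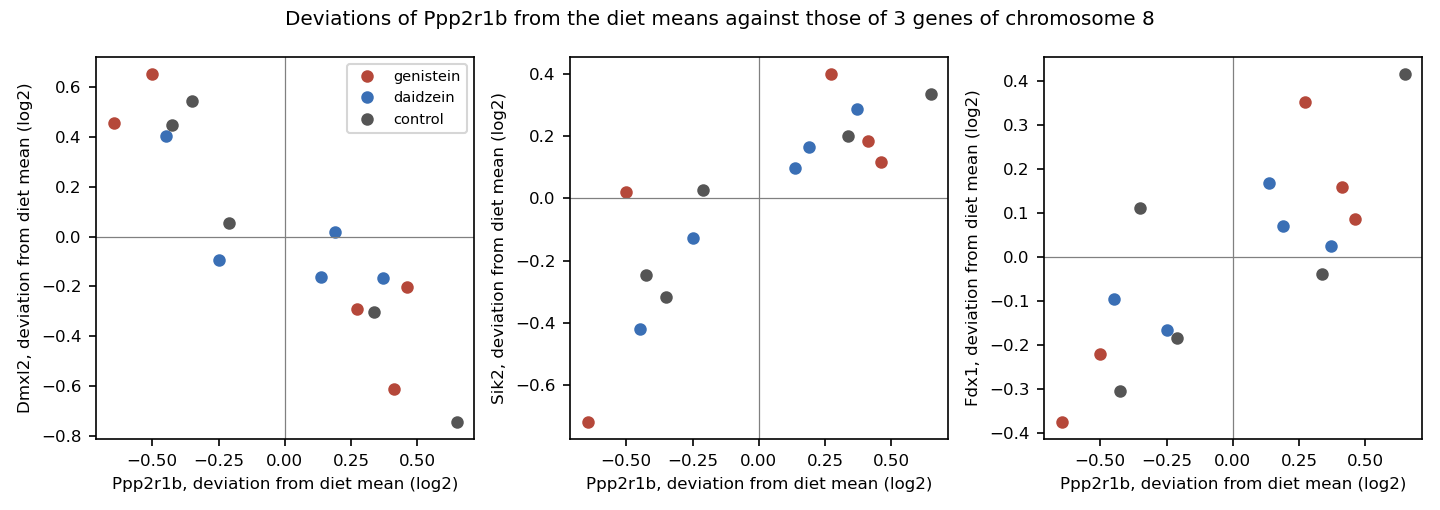
Deviation from the diet mean in log2 units of Ppp2r1b (horizontal axis) against that of Dmxl2, Sik2 and Fdx1 (vertical axes), with 1 point per array coloured by diet (n = 15). Dmxl2 falls as Ppp2r1b rises (r = -0.91), and Sik2 and Fdx1 rise with it (r = 0.86 and 0.80).

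For the other members the most similar patterns over 15 arrays belonged to Arvcf (r = 0.91) and Stac3 (r = 0.89) for Dmxl2, Cyp2d4 (r = 0.93) and Gpld1 (r = 0.93) for Olr59, Rab20 (r = 0.91) and Acot13 (r = 0.88) for Nox4, and Zdhhc23 (r = 0.92) and Pcca (r = 0.92) for Omd. For Rgs3 they were Sik2 (r = 0.88) and the sulfotransferase Sult2a6 (r = 0.86), for Tmem64 the canalicular transporter Abcc2 (r = 0.89) and the prolactin receptor Prlr (r = 0.89), and for Pcdh10 Cldn1 (r = 0.88) and Cyp2c6v1 (r = 0.85). These r values include the difference between diets on which the members were chosen, so that contrast is not tested for the genes most like a member.

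The promoters of Dmxl2 and Ppp2r1b are shown because these members moved against each other, and those of Olr59 and Omd because they are the AT-rich ones among the members that were lower. They are RefSeq windows of 250 bases before and 50 after 1 annotated start in GRCr8, found for 7 of the 8 genes, and Tmem64 is named only. For Dmxl2, Olr59 and Rgs3 that start lies far inside the span of the gene, not at its outer end. For Nox4, Pcdh10 and Ppp2r1b it lies a short way inside. In the first 3, capitals mark CG dinucleotides; in Omd they mark the hexamer AGGTCA.
Dmxl2, chr8:63781067-63781366, minus strand: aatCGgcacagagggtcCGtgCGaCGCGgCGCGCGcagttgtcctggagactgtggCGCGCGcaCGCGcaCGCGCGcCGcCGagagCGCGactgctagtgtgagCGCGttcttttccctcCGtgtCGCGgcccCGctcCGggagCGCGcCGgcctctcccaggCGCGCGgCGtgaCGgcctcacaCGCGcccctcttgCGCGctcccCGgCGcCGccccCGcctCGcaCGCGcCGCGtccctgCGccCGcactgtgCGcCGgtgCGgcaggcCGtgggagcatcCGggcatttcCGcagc
Ppp2r1b, chr8:60092309-60092608, plus strand: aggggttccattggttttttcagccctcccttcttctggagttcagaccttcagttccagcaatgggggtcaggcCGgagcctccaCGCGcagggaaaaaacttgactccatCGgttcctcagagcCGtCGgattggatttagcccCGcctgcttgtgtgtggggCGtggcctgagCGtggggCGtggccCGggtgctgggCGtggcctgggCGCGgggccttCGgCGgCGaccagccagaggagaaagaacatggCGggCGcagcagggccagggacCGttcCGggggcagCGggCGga
Olr59, chr1:166610854-166611153, minus strand: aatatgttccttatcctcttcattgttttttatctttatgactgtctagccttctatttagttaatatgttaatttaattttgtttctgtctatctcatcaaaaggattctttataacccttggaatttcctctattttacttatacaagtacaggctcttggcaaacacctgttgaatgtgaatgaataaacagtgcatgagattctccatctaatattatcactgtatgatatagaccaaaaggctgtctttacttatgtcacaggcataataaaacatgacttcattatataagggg
Omd, chr17:15274821-15275120, minus strand: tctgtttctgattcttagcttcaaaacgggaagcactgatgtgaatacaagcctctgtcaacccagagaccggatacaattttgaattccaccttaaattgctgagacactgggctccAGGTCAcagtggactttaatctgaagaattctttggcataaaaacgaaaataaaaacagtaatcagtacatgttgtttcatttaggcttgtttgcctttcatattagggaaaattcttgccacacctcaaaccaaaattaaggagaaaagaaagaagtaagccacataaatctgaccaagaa

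CG dinucleotides numbered 56 in Dmxl2, 23 in Ppp2r1b, 3 in Omd and 0 in Olr59, and 31 in Nox4, 22 in Pcdh10 and 6 in Rgs3, against a median of 7 over 33469 rat promoter windows. Both CG-rich and CG-poor windows therefore occurred among the members that were lower. The search covered both strands and 4 motifs. The palindromic estrogen response element was in 0 of the 7 windows and in 0.0269% of all windows, the STAT5 motif TTCNNNGAA in 0 of 7 and 8.87%, and the antioxidant response motif TGACNNNGC in 0 of 7 and 12.1%. The hexamer AGGTCA, which also forms part of the estrogen response element, was in 1 of 7 windows, that of Omd at position -132 from the start, and in 16.2% of all windows. A missing match says only that these letters were not in this window.

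The partners and relatives of the members were counted from lists drawn up by function. Of the PP2A subunits and regulators, 24 of 26 measured genes were tested and 0 were called in any contrast (median genistein minus control 0.03, against 0.00 over all tested probe sets). Ppp2r1a, the alpha form of the scaffold that Ppp2r1b parallels, averaged 3.25 ± 0.15 with genistein and 3.43 ± 0.10 in controls (SD, n = 5 each; limma adjusted p = 0.481). The regulatory subunit Ppp2r5e had the lowest p of the list, at 1.93 ± 0.23 with genistein and 2.44 ± 0.15 in controls, with ranges apart (difference -0.51 ± 0.11 SE, limma adjusted p = 0.0779). Ppp2r2d, another regulatory subunit, differed by 0.43 ± 0.12 (SE, limma adjusted p = 0.166).

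Of 25 measured RGS proteins and G alpha subunits, 19 were tested and 0 were called. Rgs6 averaged 0.09 ± 0.12 with genistein, 0.09 ± 0.15 with daidzein and -0.38 ± 0.18 in controls, whose mean was dim (SD, n = 5 each). Its limma adjusted p against control was 0.0656 for genistein and 0.228 for daidzein. Rgs16 averaged 3.37 ± 0.99 with genistein and 1.53 ± 1.48 in controls, a wide spread in both (limma adjusted p = 0.330). The G alpha subunit Gnai2 averaged 2.59 with genistein and 2.67 in controls, and Gnaq was dim.

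The relatives of the lower genes gave similar counts. Of 11 measured NADPH oxidase genes 10 were tested and 0 called; Cyba, the membrane partner of Nox4, averaged 2.55 ± 0.20 with genistein and 2.62 ± 0.15 in controls, and Cybb, the phagocyte oxidase, 0.93 ± 0.29 and 1.06 ± 0.33. Noxo1 and Nox1 had the lowest p of that list (differences of 0.31 and -0.17). Of 27 measured rabconnectin and V-ATPase genes 23 were tested and 0 called, and both Dmxl1, the paralog of Dmxl2, and Wdr7, its partner, were dim. Atp6v1b1 (0.53 ± 0.19 SE, limma adjusted p = 0.304) and Atp6v0d1 (0.17 ± 0.08, 0.497) had the lowest p there. Of 11 measured small leucine-rich proteoglycans 5 were tested and 0 called. Dcn averaged 0.97 ± 0.24 with genistein, 0.67 ± 0.52 with daidzein and 1.43 ± 0.30 in controls. Ogn averaged 0.33 ± 0.16, -0.13 ± 0.32 and 0.45 ± 0.21 in the same order. Prelp averaged 1.55 ± 0.06 with genistein and 1.65 ± 0.08 in controls, and Lum was dim.

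Of 16 measured delta protocadherins and partners 11 were tested and 0 called. Pcdh8 averaged -0.49 ± 0.51 with genistein and 0.51 ± 0.55 in controls (SD, n = 5 each, limma adjusted p = 0.214). Pcdh15 differed by -0.89 ± 0.31 (SE, limma adjusted p = 0.295). Both were opposite in sign to Pcdh10, and both had a dim mean with genistein. Nckap1 averaged 4.80 with genistein and 4.71 in controls. All 14 SERCA and VTT-domain genes were tested and 0 called. Atp2a2, which encodes SERCA2, averaged 4.51 ± 0.15 with genistein and 4.76 ± 0.14 in controls (SD, n = 5 each; limma adjusted p = 0.330), and Stim1, the calcium sensor, 1.57 ± 0.07 and 1.33 ± 0.15 (limma adjusted p = 0.255). Over these 7 lists and the olfactory receptors, no gene other than the members was called in any of the 3 contrasts. Of all tested probe sets 0.322% were called in genistein against control, 0.0161% in daidzein against control and 0.113% in genistein against daidzein. At such shares lists of this size would seldom hold a call, so the 0 counts do not show that these genes were unaffected. In genistein against control the unadjusted p was under 0.05 for 3 of 24 PP2A genes, 4 of 19 RGS and G alpha genes, 0 of 10 NADPH oxidase genes and 1 of 23 rabconnectin and V-ATPase genes. It was so for 2 of 11 protocadherins and partners, 0 of 5 proteoglycans, 3 of 14 SERCA and VTT-domain genes and 0 of 1 olfactory receptor, where it was for 2040 of all 18625 tested probe sets.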

How the data were processed

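The authors deposited 1 table of 31099 probe sets in 15 arrays, whose unit is a score: log signal that appears standardized within each array. Nothing states this, and it was read off the numbers, since a single factor for an array turns the exponentiated values into whole steps (375 of 375 gaps examined, tolerance 0.001). The scale averaged 2.60 log2 units per deposited unit (2.54 to 2.79). No label or header used here tells how background, probe summary and scaling were done. That unit differs from the log2 signal that the planned design allowed for, so values were multiplied by the common scale. Array medians ran from 0.00111 to 0.127, and quantile normalization followed (limma 3.58.1 under R 4.3.3). After 57 control probe sets were left out, 18625 probe sets whose mean level reached the 40th percentile were tested with lmFit and eBayes over 3 diets (12 residual and 2.58 prior degrees of freedom), with Benjamini-Hochberg adjustment per contrast. SE and intervals come from this fit and SD from the arrays. Of 260 missing values, none was in a tested probe set. The array annotation gave the symbols (20826 probe sets with 1 gene, 20758 of them in the current GRCr8 gene table); a gene of a list was represented by its brightest probe set. The array annotation names no build, so coordinates are printed only for the promoter windows, which are in GRCr8. The fit was tested on simulated data. The members, lists and tests were chosen with earlier results of these data known. Genes of a list were named by the lowest p for genistein against control or as the closest relatives of a member; likeness used the 2 highest r. Alternatives were no normalization, no filter or a stricter one, 16 units added, a replicate block, 10 arrays only and leaving out each array. Depth has no counterpart on arrays; their number limits the precision.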

Additional observations from a re-analysis of the deposited data

Results flagged for a closer look

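A single array stood apart from the other 4 of its diet in 2 of 36 sets of 5 values examined; by chance about 1 in 20 such sets would. For Tmem64 1376691_at, control 4 lay at 2.31, against 2.62 to 2.72 for the other control arrays, a gap of 0.755 of the whole range (critical value 0.71). For Tmem64 1393414_at, genistein 4 lay at 1.14, against 1.71 to 1.93 for the other genistein arrays, a gap of 0.724 of the range.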

How the results depend on the processing

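The count of probe sets called in genistein against control was 60, and it was 14 with no filter on dim probe sets, 124 with the 60th percentile filter, 17 with the replicate block and 0 with only the 10 arrays compared (limma, where 1896 had an unadjusted p under 0.05). Leaving out 1 array gave 10 (without control 1) to 203 (without genistein 4). In daidzein against control it was 3, with 7 under the stricter filter and 2 to 8 without 1 array (8 without daidzein 1). In genistein against daidzein it was 21, with 3 with no filter, 67 with the stricter filter, 36 with 16 units added, 2 with the replicate block, 2 with only the 10 arrays compared and 3 to 136 without 1 array (136 without genistein 4). No strong pairing by the numbers in the titles was seen: 1 of 15 same-numbered pairs had residuals correlated above 0.1 (r from -0.16 to 0.11). Of the 15 arrays, 3 correlated best with their own number. The samples also carry a description number, which differs in part from the title number, and pairing by it was not tested. Among the 15 fits without 1 array, Dmxl2 passed in genistein against control in 15, Tmem64 1373909_at in 14, Olr59 in 10 and Nox4 in 8. Ppp2r1b passed in 6, Pcdh10 in 5, Omd in 2 and Rgs3 1367957_at in 1. The genes were chosen on this contrast in these same arrays, so the counts describe the fits and carry no test. Pcdh10 also passed the filter only through the isoflavone diets. Sign turned only for Rgs3 1376803_at, near 0: without 1 array genistein minus control (-0.07) ran from -0.31 to 0.08 and was above 0 without control 4, control 5 or genistein 3, daidzein minus control ran from -0.38 to 0.0061 (without control 5), and genistein minus daidzein from -0.040 (without daidzein 4) to 0.21. Tmem64 1373909_at passed against daidzein with the stricter filter (adjusted p = 0.0293) and with 16 units added (0.0473). Background limits Pcdh10, Nox4 and Dmxl2, with genistein-to-control folds of 2.54, 2.14 and 3.36 after 16 units were added and 4.48, 2.77 and 4.57 without. The cause of these changes was not tested.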

Other observations

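The deviations of Olr59 from the diet means followed those of 3 sex-biased liver genes on the same chromosome. The r over 15 arrays was 0.80 with Cyp2c11, 0.87 with Cyp2c13 and -0.80 with Cyp2c12. These genes are no neighbours of Olr59: they lie 554, 558 and 557 tested genes away in this order. None of the 20 nearest tested genes had a size of r over 0.7. This look was chosen after the values were seen. The 3 were picked as sex-biased genes from those of chromosome 1 whose r was among the 50 largest in size. No list of sex-biased genes was examined as a whole, so no general link to such genes is read from these. Of the 50 genes with the largest r in size to Olr59, 10 lay on chromosome 1, which holds 12.8% of the 10704 genes. These 10 also included Slc22a8 (r = 0.81) and Fas (r = -0.84). The 3 Cyp2c genes share sequence and the arrays. Genistein minus control was -1.38 ± 0.30 (SE, limma adjusted p = 0.0757) for Cyp2c11, -0.70 ± 0.21 (0.186) for Cyp2c13 and 0.65 ± 0.35 (0.530) for Cyp2c12.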
